A study of Rattus norvegicus with 65 samples.

Results

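Protein phosphatase 2A (PP2A) is one of the main serine and threonine phosphatases of animal cells. The holoenzyme joins a catalytic C subunit to a scaffold A subunit, and a regulatory B subunit bound to this core decides which substrates are reached and where in the cell. The B subunits fall into families, known as B55, B56, PR72/130 and the striatins. In heart muscle cells PP2A acts on calcium handling proteins, ion channels and contractile proteins, and in all cells it takes part in the cell cycle and in ending the DNA damage response.

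This account describes 10 genes of PP2A subunits, out of 14554 genes measured: the catalytic subunits Ppp2ca and Ppp2cb, the scaffolds Ppp2r1a and Ppp2r1b, the B55 subunits Ppp2r2a, Ppp2r2c and Ppp2r2d, the PR72/130 subunit Ppp2r3a and the B56 subunits Ppp2r5a and Ppp2r5c. They were chosen by name as PP2A subunits, with the rise of Ppp2r2c under Dox already known from these data, and all 10 had a row of counts. The values of Dox against its control therefore helped to choose the genes, so they are given below as a description, without a test. In all, 16 genes of PP2A subunits had counts, not counting the striatins.

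The RNA came from primary neonatal rat cardiomyocytes, which are the beating muscle cells of newborn rat hearts, kept without serum before treatment. The cells received 10 mM 5-fluorouracil (5FU), 2.5 mM acetaminophen (Ace) or 1.25 µM doxorubicin (Dox) for 6 or 24 h. 5FU is an antimetabolite that disturbs nucleotide synthesis, Dox is an anthracycline that acts on topoisomerase II and DNA, and Ace is a pain reliever known for toxicity to the liver. The controls were DMSO1, at 1% DMSO to match 5FU, and DMSO2, at 0.25% DMSO to match Ace and Dox. There were 65 libraries in 10 groups, with 6 libraries for both DMSO1 groups, both 5FU groups and Ace at 6 h, and 7 for the others. The plated cells were a mixture from several litters. Libraries within a group thus stem from cultures run side by side, and p-values measure the spread between cultures and not between animals.

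Library totals ran from 14332827 to 25738297 estimated counts. Levels are given in CPM, the usual unit of counts relative to the library total, here after TMM scaling, and they are compared between groups for the same gene, not between genes, because transcript lengths were not used. All 9 cardiomyocyte markers on the list used were measured in every group. The summed level of these markers ran from 38490 to 50260 CPM in DMSO2 at 24 h and from 22452 to 29681 CPM in Dox at 24 h. Among them Nppa, which encodes a natriuretic peptide, went the other way, from a median of 1017 to 12215 CPM, and the other 8 summed to 36996 to 49496 CPM in DMSO2 and to 11538 to 15992 CPM in Dox. Of these 8, Myl2 had medians of 4301 CPM in DMSO2 and 4539 CPM in Dox. The 7 fibroblast markers summed to 14886 to 18695 CPM in DMSO2 and to 1892 to 4019 CPM in Dox at 24 h, and the 5 endothelial markers measured to 232 to 303 CPM and to 18.2 to 41.3 CPM. With 5FU at 24 h the cardiomyocyte markers summed to 30199 to 33057 CPM, against 37390 to 43360 CPM in DMSO1, and the fibroblast markers to 5098 to 5767 CPM, against 9846 to 19715 CPM. Among the cardiomyocyte markers the medians of Nppa and Tnni3 went the other way, from 1312 to 5789 CPM and from 1771 to 2200 CPM. Without Nppa the other 8 summed to 24072 to 26064 CPM with 5FU and to 34789 to 42193 CPM in DMSO1. With Ace at 24 h the fibroblast markers summed to 7180 to 9202 CPM, the endothelial markers to 128 to 231 CPM and the 4 smooth muscle and pericyte markers to 211 to 255 CPM, the last against 319 to 378 CPM in DMSO2, while the cardiomyocyte markers, at 39322 to 55245 CPM, overlapped DMSO2. Apart from that overlap, the drug and control groups were separate in each of these 24 h sums. Of the smooth muscle and pericyte markers with Ace, the median of Cnn1 went the other way, from 28.1 to 50.8 CPM. With Dox at 24 h the sum of those 4 markers, 205 to 465 CPM, overlapped DMSO2. At 6 h the endothelial markers summed to 62.9 to 103 CPM with Dox against 191 to 241 CPM in DMSO2. The cardiomyocyte and fibroblast sums overlapped in that comparison. Fewer cells of a type and less RNA per cell cannot be told apart in such data. The part of these marker changes in the results below was not tested.

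The promoters of the gene that rose and of the gene that fell furthest with Dox are shown because the results turn on these genes and because the letters of the windows differ widely. In the RefSeq table (rat build GRCr8), 8 of the 10 members had a promoter window. Each window holds 250 bases before and 50 bases after the annotated start, written 5′ to 3′ along the gene. Capitals mark the letters GGGCGG (the core of a GC box), CCAAT (the CAAT box) or TATAAA (the TATA box) on either strand, where TATAAA on the opposite strand reads TTTATA.
Ppp2r2c, chr14:78156163-78156462, minus strand: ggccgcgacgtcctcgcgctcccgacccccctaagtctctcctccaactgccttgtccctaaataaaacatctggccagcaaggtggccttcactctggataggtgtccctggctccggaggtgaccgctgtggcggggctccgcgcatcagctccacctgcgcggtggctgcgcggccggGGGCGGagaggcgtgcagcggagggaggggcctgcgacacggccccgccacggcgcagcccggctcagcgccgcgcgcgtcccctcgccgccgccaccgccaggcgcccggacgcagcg
Ppp2r3a, chr8:110677433-110677732, minus strand: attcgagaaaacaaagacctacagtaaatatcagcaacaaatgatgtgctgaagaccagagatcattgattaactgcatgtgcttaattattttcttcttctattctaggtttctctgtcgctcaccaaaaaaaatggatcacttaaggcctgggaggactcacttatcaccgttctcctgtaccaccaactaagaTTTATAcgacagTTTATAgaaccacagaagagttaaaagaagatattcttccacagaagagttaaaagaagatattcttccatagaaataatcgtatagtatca
The Ppp2r2c window was 73.7% G and C with 38 CpG dinucleotides, more CpG than 95.8% of all 33469 promoter windows. It held GGGCGG at 1 place, and 33.1% of all windows hold that word. The Ppp2r3a window was 35.3% G and C with 5 CpG, held no GGGCGG or CCAAT, and had TATAAA at 2 places on the opposite strand, a word present in 14.2% of all windows. The other 6 members with a window had between 8 CpG, for Ppp2r5c, and 48 CpG, for Ppp2r5a, against a median of 7 over all windows. The letters TGACGTCA, a cAMP response element, stood once in the windows of Ppp2ca and Ppp2r2d and in 1.83% of all windows, and CACGTG, an E-box, in none of the 8 and in 6.42% of all. Ppp2cb and Ppp2r2a are named only. No letters matching a p53 half-site on either strand were found in the windows of these 8 members, and 7.98% of all windows hold such a match. These matches describe letters, and no binding was measured.

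With 5FU at 24 h 7 of the 10 genes rose, beside 28% of all genes. With Ace 1 gene rose and 1 fell at each time, beside 16.5% higher and 15.2% lower of all genes at 6 h and 18.2% and 19.1% at 24 h. The log2 fold changes of the genes called with Ace lay between −0.38 and 0.20. With Dox Ppp2r2c went from 0 to 7 counts per library in the 24 h control to 978 to 1793. The plot of levels by library shows every value.

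**Figure D1:**
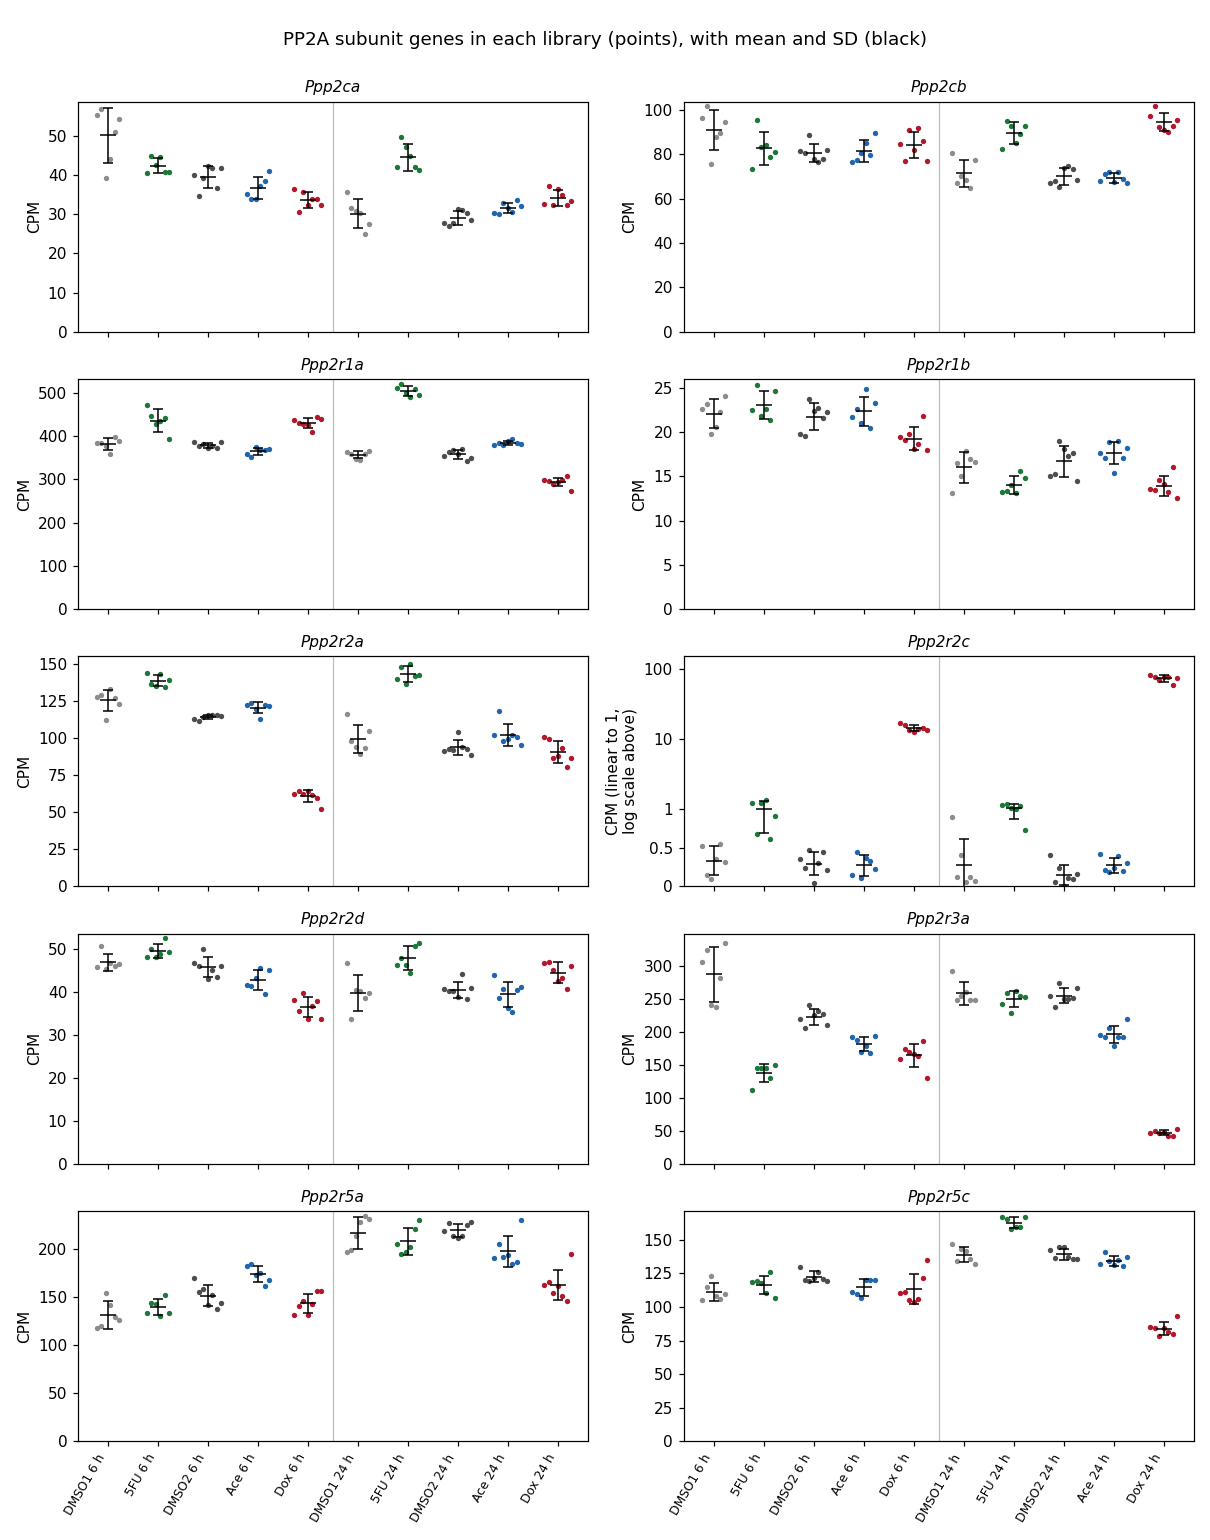
CPM of the 10 PP2A subunit genes in each library (points, coloured by treatment), with the group mean and SD in black, for the 10 groups with 6 h on the left of each panel and 24 h on the right. The panel of Ppp2r2c is linear up to 1 CPM and logarithmic above, and there the 7 Dox libraries lie at 12.6 to 16.5 CPM at 6 h and at 57.3 to 81.2 CPM at 24 h, while every control library lies below 1 CPM.

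Ppp2r2c encodes the gamma form of the B55 subunit, a form best known from brain. In DMSO2 it had from 1 to 9 counts per library at 6 h and from 0 to 7 at 24 h, with medians of 0.295 and 0.106 CPM. The 1 library without counts allows up to 3 counts, or 0.162 CPM on the raw total. In DMSO1 the range was 0.0954 to 0.544 CPM at 6 h, with a median of 0.333, and 0.0524 to 0.890 CPM at 24 h, with a median of 0.122. Thus in control cultures the gene stood near the limit of detection at this depth, and 3 of the 26 control libraries had 10 or more counts.

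With Dox, Ppp2r2c had 225 to 302 counts per library at 6 h, or 12.6, 13.8 and 16.5 CPM as the lowest, median and highest value. At 24 h it had 978 to 1793 counts, or 57.3, 75.3 and 81.2 CPM. Every Dox library lay above every library of the other 8 groups, and every 24 h Dox library lay above every 6 h Dox library. The fitted log2 difference from DMSO2 was 5.59 (SE 0.22) at 6 h and 8.90 (SE 0.23) at 24 h, or 48.1-fold and 476-fold. The second ratio rests on 19 counts summed over the 7 DMSO2 libraries, which is 0.144 CPM on the raw totals with an exact Poisson 95% interval of 0.0867 to 0.225, against 9324 counts over the 7 Dox libraries. The interval covers counting error only. Each SE of a log2 difference here is its absolute value divided by the square root of the edgeR F statistic. With so few control counts, the SEs of Ppp2r2c with Dox understate the error. The 24 h log2 difference was 9.33 without library 1 of DMSO2 at 24 h, which held 7 of the 19 counts.

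Ppp2r2c was also higher with 5FU, at a far lower level. With 5FU at 6 h it had 0.604, 1.06 and 1.34 CPM (lowest, median, highest), from 12 to 26 counts. With 5FU at 24 h it had 0.722, 1.06 and 1.16 CPM, from 14 to 23 counts. At 6 h all 5FU libraries lay above all DMSO1 libraries, and at 24 h the groups overlapped only through library 1 of DMSO1, with 17 counts. The log2 fold change was 1.56 (SE 0.33, edgeR quasi-likelihood FDR 3.98e-05) at 6 h and 1.78 (SE 0.35, edgeR FDR 9.71e-06) at 24 h. Without library 1 of DMSO1 at 24 h the second value was 2.61. With Ace it had 0.103 to 0.447 CPM at 6 h and 0.185 to 0.416 CPM at 24 h, both overlapping DMSO2, and neither passed the test (log2 fold changes −0.12, SE 0.43, and 0.88, SE 0.48, edgeR FDR 0.847 and 0.127). In the order of medians Dox at 24 h came first, then Dox at 6 h, then both 5FU groups, whose ranges overlapped, and the ranges of the other 6 groups overlapped one another.

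Compared with 10508 other named genes whose counts averaged 100 or more per library, genes whose log2 levels closely followed Ppp2r2c over the 10 group means were Tbx3 (Pearson r 0.993), Ei24 (0.990), Rcn2 (0.988) and Slc27a3 (0.988). Tbx3 encodes a T-box transcription factor, and Ei24 a protein of the endoplasmic reticulum first found as a p53-induced gene. The median of Tbx3 at 24 h was 5.67 CPM in DMSO2, 9.08 CPM with 5FU and 40.2 CPM with Dox. The 10 points share libraries and are dominated by the 2 Dox groups, so these correlations only describe the shape of the profile.

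The other B55 members did not follow it. Ppp2r2a encodes B55 alpha, the widely expressed form. With Dox at 6 h it had 52.3, 62.6 and 64.6 CPM (lowest, median, highest), against 112, 115 and 116 CPM in DMSO2, with no overlap. Its log2 difference was −0.90 (SE 0.05) at 6 h and −0.05 (SE 0.05) at 24 h, when the groups overlapped at 80.3 to 101 CPM with Dox and 88.7 to 104 CPM with DMSO2. The 7 libraries of Dox at 6 h were the lowest of all 65. With 5FU Ppp2r2a had 135, 138 and 144 CPM at 6 h and 137, 143 and 151 CPM at 24 h, above every DMSO1 library of the same time. The 24 h increase passed the test (0.53, SE 0.05, edgeR FDR 5.66e-14) and the 6 h difference of 0.15 (SE 0.05) missed it at an edgeR FDR of 0.0110. It passed without library 4 of DMSO1 at 6 h (0.16, edgeR FDR 0.00651). With all libraries it passed in DESeq2's Wald test (0.16, FDR 0.00368). It also passed in edgeR with DESeq2's scaling (FDR 0.00608) or a stricter count filter (FDR 0.00714). With library size as the only scaling, or only the groups compared in the fit, it did not pass.

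Ppp2r2d encodes B55 delta, the form tied to control of mitotic exit. It had 33.6, 36.8 and 39.7 CPM with Dox at 6 h, against 42.9, 46 and 50.1 CPM in DMSO2, with no overlap (log2 −0.33, SE 0.05). At 24 h it had 40.7, 45.1 and 47.1 CPM with Dox against 38.4, 40.3 and 44.1 CPM, overlapping (0.14, SE 0.05). With 5FU at 24 h it rose by 0.26 on the log2 scale (SE 0.05, edgeR FDR 1.28e-05), from a median of 39.9 to 47 CPM, and the groups overlapped through library 1 of DMSO1. The fourth B55 gene, Ppp2r2b, is not a member and encodes the beta form known from neurons. It fell with 5FU, with log2 fold changes of −1.38 (SE 0.22, edgeR FDR 2.61e-07) at 6 h and −1.62 (SE 0.19, edgeR FDR 7.35e-11) at 24 h, from a median of 2.72 to 1.14 CPM and from 6.52 to 2.06 CPM, with no overlap at either time. With 5FU at 24 h 3 of the 4 B55 genes were higher and 1 was lower, beside 28% and 27.8% of all genes. With Dox at 24 h Ppp2r2b rose by 0.64 (SE 0.15, edgeR FDR 0.000134), with overlapping groups. As B55 gamma and beta are known from brain, 4 of 7 neuron markers on the list were measured, and they summed to 5.21 to 8.60 CPM with Dox at 24 h, against 0.642 to 1.43 CPM in DMSO2, and to 1.23 to 2.69 CPM with Dox at 6 h, against 1.23 to 2.25 CPM. At 24 h the medians of Nefm went from 0.114 to 3.86 CPM, of Syt1 from 0.399 to 1.82 CPM and of Nefl from 0.0518 to 0.793 CPM, and that of Elavl4 from 0.319 to 0.241 CPM. Their part in the levels of Ppp2r2c and Ppp2r2b was not tested.

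Ppp2r3a encodes the PR72 and PR130 subunits, forms made from different starts of the same gene, which are abundant in heart and muscle. It overlaps Msl2 in the rat annotation, and its counts, made without regard to strand, could share reads with that gene. Of the 10 members it had the lowest log2 difference with Dox at 24 h. In DMSO2 it had 205, 225 and 241 CPM at 6 h and 238, 251 and 274 CPM at 24 h. With Dox it had 130, 167 and 186 CPM at 6 h and 41.6, 47 and 52.3 CPM at 24 h, below every DMSO2 library at both times. The log2 differences were −0.44 (SE 0.06) and −2.44 (SE 0.07), the second of which is a level at 0.184 of the control.

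Ppp2r3a was also lower at 6 h with both other drugs, and at 24 h with Ace. With 5FU at 6 h it had 112, 145 and 149 CPM against 237, 294 and 334 CPM in DMSO1, with no overlap (−1.06, SE 0.07, edgeR FDR 1.96e-20). At 24 h it had 228, 253 and 262 CPM with 5FU against 247, 251 and 292 CPM, and no change was detected (−0.05, SE 0.07, 95% interval −0.19 to 0.08, edgeR FDR 0.530). The 24 h effect minus the 6 h effect was 1.01 (SE 0.10, edgeR FDR 3.12e-13). With Ace it fell at both times, with log2 fold changes of −0.29 (SE 0.07, edgeR FDR 0.000233) at 6 h and −0.38 (SE 0.06, edgeR FDR 1.25e-06) at 24 h, with levels of 168 to 193 CPM and of 178 to 220 CPM that did not reach any DMSO2 library of the same time. Ppp2r3a was the only member that passed the test at both times with Ace. At 6 h its level also differed between the controls, by 0.37 (SE 0.07, edgeR FDR 1.78e-05) in DMSO1 over DMSO2.

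**Figure D2:**
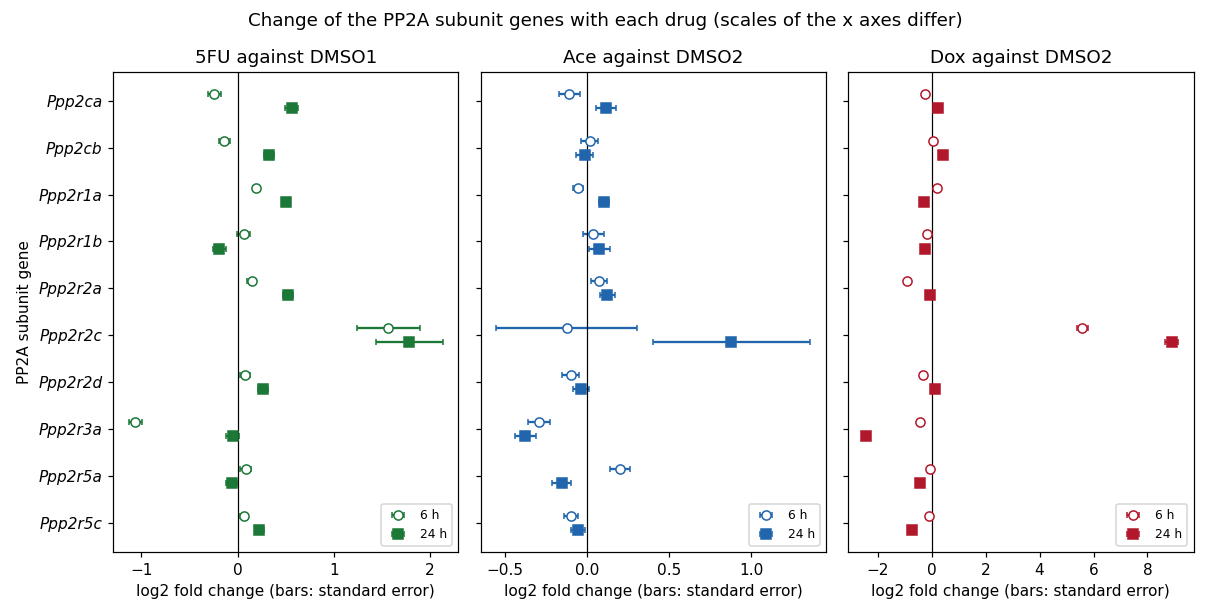
Log2 fold change of the 10 members against the DMSO control of the same time, with the standard error as bars, for 5FU, Ace and Dox (panels, with different x scales) at 6 h (open circles) and 24 h (filled squares). Ppp2r2c stands at 5.59 and 8.90 with Dox, and Ppp2r3a at −1.06 with 5FU at 6 h and at −2.44 with Dox at 24 h, while most other values lie between −1 and 1.

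The B56 members, Ppp2r5a (B56 alpha, a form known at the heart's contractile and junctional proteins) and Ppp2r5c (B56 gamma, known for binding p53 after DNA damage), were both lower with Dox at 24 h. Ppp2r5a had 146, 162 and 194 CPM with Dox against 212, 219 and 228 CPM in DMSO2, and Ppp2r5c had 78.4, 84.2 and 93.1 CPM against 136, 137 and 145 CPM. Neither gene overlapped its control, and the log2 differences were −0.44 (SE 0.06) and −0.73 (SE 0.04). At 6 h they were −0.08 (SE 0.06) and −0.11 (SE 0.04), with overlap, and with library size as the only scaling they were −0.23 and −0.27. With 5FU at 24 h Ppp2r5c rose by 0.23 (SE 0.05, edgeR FDR 1.80e-05) to 158 to 167 CPM, above all DMSO1 libraries at 132 to 147 CPM, whereas Ppp2r5a did not pass the test (−0.06, SE 0.06, 95% interval −0.18 to 0.06, edgeR FDR 0.408).

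Ppp2r5a had opposite signs in the Ace comparisons. At 6 h it had 162, 174 and 184 CPM with Ace against 138, 152 and 170 CPM, and rose by 0.20 (SE 0.06, edgeR FDR 0.00409) with overlapping groups. At 24 h it had 184, 192 and 230 CPM against 212, 219 and 228 CPM and the difference of −0.15 (SE 0.06, edgeR FDR 0.0201) did not pass. The change of the Ace effect between the times did pass (−0.35, SE 0.08, edgeR FDR 0.000899), but not with library size as the only scaling (−0.27, edgeR FDR 0.0175). The 6 h call was also lost with that scaling (0.17, edgeR FDR 0.0211) and on leaving out library 1 or 2 of Ace or library 4, 6 or 7 of DMSO2, with values of 0.18 to 0.19. At 24 h the decrease passed without library 7 of Ace, the highest one (−0.19, edgeR FDR 0.00351).

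The catalytic subunits rose together with 5FU at 24 h. Ppp2ca had 41.1, 43.4 and 49.6 CPM against 24.8, 30.5 and 35.7 CPM in DMSO1 (0.56, SE 0.07, edgeR FDR 8.14e-11). Ppp2cb had 82.3, 90.8 and 95 CPM against 64.9, 69.2 and 80.4 CPM (0.33, SE 0.06, edgeR FDR 7.41e-07). In neither gene did the groups overlap. At 6 h Ppp2ca was lower with 5FU (−0.24, SE 0.07, edgeR FDR 0.00124), a call lost with only these groups in the fit (edgeR FDR 0.0210), and Ppp2cb did not pass (−0.14, SE 0.06, edgeR FDR 0.0285), and it did so without library 2 of 5FU or library 3 of DMSO1 (both −0.19). The effects at 24 h minus 6 h were 0.80 (SE 0.09, edgeR FDR 1.35e-10) for Ppp2ca and 0.46 (SE 0.08, edgeR FDR 1.34e-06) for Ppp2cb.

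With Dox at 24 h the log2 differences of Ppp2ca and Ppp2cb were 0.23 (SE 0.06) and 0.43 (SE 0.05). Ppp2cb had 90.1, 92.9 and 102 CPM against 65.2, 68.6 and 74.8 CPM, with no overlap. With Ace neither gene passed at either time. In the controls both fell between 6 and 24 h, with log2 differences of −0.59 (SE 0.05, edgeR FDR 5.46e-18) and −0.28 (SE 0.04, edgeR FDR 2.53e-09).

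Counts of Ppp2ca are uncertain because the table also holds Ppp2cal1, a close copy of it, at 98.4 to 201 CPM, so that reads could be divided between the copies. Summed with Ppp2cal1, an alternative chosen after seeing the data, Ppp2ca still rose with 5FU at 24 h (0.47, SE 0.08, edgeR FDR 2.91e-07) and fell between 6 and 24 h in the controls (−0.44, SE 0.05, edgeR FDR 2.88e-11). The decrease with 5FU at 6 h no longer passed (−0.17, SE 0.08, edgeR FDR 0.0470), and the Dox difference at 6 h went from −0.23 (SE 0.06) to −0.09 (SE 0.07).

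Of the scaffolds, Ppp2r1a encodes the main A alpha form and Ppp2r1b the A beta form. Ppp2r1a had 492, 505 and 520 CPM with 5FU at 24 h, against 346, 359 and 365 CPM in DMSO1, with no overlap (0.50, SE 0.03, edgeR FDR 5.15e-21). At 6 h it had 393, 439 and 473 CPM against 360, 384 and 399 CPM, overlapping (0.19, SE 0.03, edgeR FDR 8.60e-07), and with only these groups in the fit the call was lost (edgeR FDR 0.0122). Ppp2r1b had 13.1, 13.7 and 15.6 CPM with 5FU at 24 h against 13.1, 16.5 and 17.9 CPM, and its difference of −0.19 (SE 0.07) did not pass at an edgeR FDR of 0.0154. It passed without library 1 of DMSO1, the lowest of its group (−0.24, edgeR FDR 0.00195). Ppp2r1b overlaps Sik2 in the annotation, and its counts could share reads with that gene. With Dox Ppp2r1b had 17.9 to 21.8 CPM at 6 h, against 19.6 to 23.7 CPM in DMSO2. At 24 h it had 12.5 to 16 CPM against 14.5 to 19 CPM. Both pairs overlapped, with log2 differences of −0.18 (SE 0.06) and −0.26 (SE 0.06). Its place among the members counted as lower at 6 h was lost in 11 of 14 fits with 1 library left out.

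With Dox Ppp2r1a had 410 to 445 CPM at 6 h, above the 372 to 386 CPM of DMSO2, and 274 to 307 CPM at 24 h, below the 344 to 370 CPM of DMSO2. The log2 differences were 0.18 (SE 0.03) and −0.28 (SE 0.03), and with library size as the only scaling the first was 0.03. With Ace at 24 h all 7 libraries had 380 to 393 CPM, above every DMSO2 library, and the increase of 0.10 (SE 0.03, edgeR FDR 0.00270) was the only one among the members there. The change of the Ace effect between the times was 0.16 (SE 0.04, edgeR FDR 0.00516). It missed the threshold on leaving out library 1, 2 or 6 of Ace at 6 h, library 4 of Ace at 24 h, library 1 of DMSO2 at 6 h or library 6 of DMSO2 at 24 h, with values of 0.14 to 0.15.

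The ratio of the paired forms was compared within each library, as the log2 ratio of counts. Its level depends on transcript lengths, so only its differences between groups carry information. The log2 ratio of Ppp2r1b to Ppp2r1a was −5.28 to −5.03 with 5FU at 24 h, below all DMSO1 libraries at −4.80 to −4.27. The difference of −0.69 had an exact two-sided permutation p of 0.00216, the smallest this design allows, and a Benjamini-Hochberg value of 0.0140 over the 8 tests of ratios, for which the threshold was 0.05. The log2 ratio of Ppp2cb to Ppp2ca was lower with 5FU at 24 h than in DMSO1 (difference −0.24, exact permutation p 0.00866, adjusted 0.0231) and lower with Ace at 24 h than in DMSO2 (difference −0.13, exact permutation p 0.00350, adjusted 0.0140). Both of the last were lost when Ppp2ca was summed with Ppp2cal1 (−0.14 in each, adjusted p 0.159 and 0.113). The other 5 tests did not pass, with adjusted values of 0.113 to 0.724.

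In the Dox groups the mean log2 ratio of Ppp2cb to Ppp2ca was 1.33 ± 0.07 (SD, n = 7) at 6 h and 1.47 ± 0.09 (SD, n = 7) at 24 h, against 1.03 ± 0.13 and 1.27 ± 0.03 in DMSO2 (SD, n = 7 each). That of Ppp2r1b to Ppp2r1a was −4.49 ± 0.08 and −4.40 ± 0.09 (SD, n = 7 each), against −4.13 ± 0.11 and −4.43 ± 0.15 (SD, n = 7 each).

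**Figure D3:**
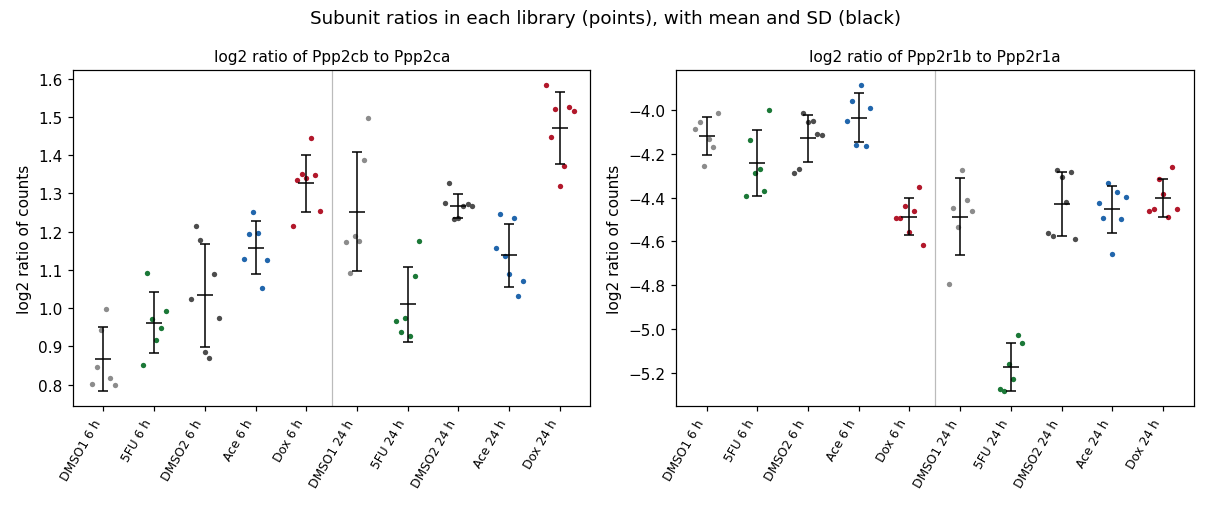
Log2 ratio of counts of Ppp2cb to Ppp2ca (left) and of Ppp2r1b to Ppp2r1a (right) in each library, with the group mean and SD in black. On the right the 6 libraries of 5FU at 24 h, at −5.28 to −5.03, lie below all others.

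Counted over the members, with an edgeR quasi-likelihood FDR below 0.01 over all genes as the call, 5FU at 6 h gave 2 higher and 2 lower of the 10, beside 23.4% and 24.5% of all genes. At 24 h it gave 7 higher and 0 lower, beside 28% and 27.8% of all genes. At an unadjusted p under 0.05 with edgeR 8 members passed, of which Ppp2r1b was lower, beside 9778 of the 14554 genes. The 7 were Ppp2ca, Ppp2cb, Ppp2r1a, Ppp2r2a, Ppp2r2c, Ppp2r2d and Ppp2r5c, and the median log2 fold change of the 10 was 0.29, against −0.01 for all genes. The effect of 5FU at 24 h minus that at 6 h was higher for 5 members (Ppp2ca, Ppp2cb, Ppp2r1a, Ppp2r2a and Ppp2r3a) and lower for 0, beside 20.3% and 19.2% of all genes, with 8 members at an unadjusted p under 0.05 in edgeR, beside 8076 of the 14554 genes. DESeq2's Wald test gave 3 higher and 2 lower for 5FU at 6 h and the same counts as edgeR in the other 5FU comparisons.

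Ace gave 1 higher and 1 lower at 6 h, beside 16.5% and 15.2% of all genes, and 1 higher and 1 lower at 24 h, beside 18.2% and 19.1%. Its effect at 24 h minus that at 6 h was higher for 1 and lower for 1, beside 5.58% and 6.06%. Ace and Dox share the DMSO2 libraries, so their comparisons are not independent of each other. For Dox, which chose the genes, 2 members were higher and 5 lower at 6 h, beside 31.5% and 32.7% of all genes, and 4 were higher and 5 lower at 24 h, beside 40.4% and 41%. The Dox effect at 24 h minus that at 6 h was higher for 5 and lower for 4, beside 34% and 30.8%. Nothing is read from these Dox counts.

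The controls differed with time and, at 6 h, with the share of DMSO. From 6 to 24 h 2 members rose and 6 fell, beside 32.7% and 31.9% of all genes. Ppp2r5a rose by 0.63 (SE 0.04, edgeR FDR 4.27e-21), from medians of 127 and 152 CPM in DMSO1 and DMSO2 to 221 and 219 CPM, and Ppp2r5c by 0.25 (SE 0.03, edgeR FDR 1.10e-10). Ppp2ca, Ppp2cb, Ppp2r1a, Ppp2r1b, Ppp2r2a and Ppp2r2d fell, with log2 differences from −0.59 to −0.09. DMSO1 against DMSO2 at 6 h gave 2 higher (Ppp2ca and Ppp2r3a, by 0.34 and 0.37) and 1 lower (Ppp2r5a, −0.20), beside 9.87% and 6.60% of all genes, and each 6 h effect of 5FU above is against DMSO1. The call of Ppp2r5a was lost without library 1, 2, 5 or 6 of DMSO1 or library 1, 2, 3 or 5 of DMSO2 (−0.20 to −0.17), and without library 3 of DMSO1, 6 members were called. At 24 h DMSO1 against DMSO2 gave 0 higher and 0 lower, beside 0.137% and 0.295%, and with edgeR 0 members had an unadjusted p under 0.05. DESeq2 also called 0 there.

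The genes around PP2A were taken from lists of general knowledge. Of the 9 other regulatory subunits, striatins included, 1 rose and 4 fell with Dox at 6 h, beside 31.5% and 32.7% of all genes, and 3 rose and 4 fell at 24 h, beside 40.4% and 41%. The striatins are the B subunits of the STRIPAK complex, and among them Strn3 fell at both times, with log2 fold changes of −1.13 (SE 0.06, edgeR FDR 2.64e-27) and −1.37 (SE 0.06, edgeR FDR 1.24e-32). Its median went from 77.1 CPM in DMSO2 to 34.7 CPM at 6 h and from 94.1 to 36.1 CPM at 24 h. Of the same 9, 2 rose and 3 fell with 5FU at 6 h, beside 23.4% and 24.5% of all genes, and 3 rose and 2 fell at 24 h, beside 28% and 27.8%. At 24 h Ppp2r5b, the B56 beta form, rose by 0.91 (SE 0.08, edgeR FDR 2.27e-16) from 26.7 to 41.9 CPM in DMSO1 to 56.4 to 65.5 CPM.

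Of 5 genes of PP2A assembly, methylation and activation, 2 rose and 3 fell with Dox at 24 h, beside 40.4% and 41% of all genes. Tiprl, which binds the catalytic subunit outside the holoenzyme, fell by 1.23 (SE 0.05, edgeR FDR 9.97e-33) at 6 h, and its log2 fold change at 24 h was −1.92 (SE 0.05, edgeR FDR 9.69e-43), with levels of 7.55 to 9.67 CPM against 29.3 to 33.6 CPM in DMSO2. Of 5 measured genes of PP2A inhibitors, 3 rose and 2 fell with 5FU at 6 h, beside 23.4% and 24.5% of all genes, and 4 rose and 0 fell at 24 h, beside 28% and 27.8%, where the fifth, Cip2a, had −0.34 (SE 0.15, edgeR FDR 0.0395). Pabir1, an inhibitor of the B55 alpha holoenzyme, rose with 5FU at 6 h by 0.92 (SE 0.08, edgeR FDR 5.98e-16), and Cip2a, the cancerous inhibitor of PP2A, rose with Ace at 24 h by 1.53 (SE 0.13, edgeR FDR 3.13e-16), from 2.51 to 3.56 CPM in DMSO2 to 5.94 to 10.5 CPM. Of the inhibitors 2 rose and 2 fell with Dox at 24 h, beside 40.4% and 41% of all genes, and Cip2a was 1 of the 2 that rose.

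Of 10 STRIPAK partners, 3 rose and 3 fell with 5FU at 6 h, beside 23.4% and 24.5% of all genes, and 7 rose and 1 fell at 24 h, beside 28% and 27.8%. With Dox 6 rose and 1 fell at 6 h, beside 31.5% and 32.7%, and 7 rose and 3 fell at 24 h, beside 40.4% and 41%. Strip2 rose with 5FU at 24 h by 0.96 (SE 0.08, edgeR FDR 1.00e-15), and the kinase gene Stk26 rose with Dox by 0.82 (SE 0.13, edgeR FDR 1.78e-07) at 6 h and by 1.73 (SE 0.14, edgeR FDR 7.83e-18) at 24 h. Stk26 also rose with Ace, by 0.68 (SE 0.14, edgeR FDR 3.79e-05) at 6 h and by 0.59 (SE 0.15, edgeR FDR 0.000626) at 24 h. Strip2 rose with Ace at 6 h by 0.40 (SE 0.08, edgeR FDR 2.74e-05). Slmap, which encodes a membrane protein of the heart's junctions, fell with 5FU at 6 h (−1.12, SE 0.11, edgeR FDR 2.34e-13) and 24 h (−0.65, SE 0.11, edgeR FDR 7.42e-07) and with Ace at 6 h (−0.51, SE 0.11, edgeR FDR 7.46e-05) and 24 h (−0.57, SE 0.10, edgeR FDR 4.01e-06). At 6 h it was also 0.77 higher in DMSO1 than in DMSO2 on the log2 scale (SE 0.11, edgeR FDR 7.26e-08). With Dox at 6 h the median of Slmap was higher, at 406 CPM against 247 CPM in DMSO2, with overlapping groups. At 24 h it was lower, at 185 CPM against 280 CPM, with no overlap. The Dox effect on Slmap at 24 h minus that at 6 h was −1.26 (SE 0.14, edgeR FDR 1.07e-11). Of 10 subunits of the related phosphatases PP4 and PP6, 0 rose and 4 fell with Dox at 6 h, beside 31.5% and 32.7% of all genes, and 7 rose and 1 fell at 24 h, beside 40.4% and 41%. Of 9 other phosphatase genes of the same family, 4 rose and 5 fell with Dox at 24 h, beside 40.4% and 41% of all genes, and with 5FU at 24 h Ppp5c rose by 0.87 (SE 0.05, edgeR FDR 2.74e-23). With Ace at 6 h 0 of the 9 other regulatory subunits rose and 1 fell, beside 16.5% and 15.2% of all genes. The counts were 3 and 1 of 5 assembly genes, 2 and 0 of 5 inhibitors and 3 and 1 of 10 STRIPAK partners. They were 4 and 1 of 10 PP4 and PP6 subunits and 1 and 0 of the 9 other phosphatases. At 24 h, beside 18.2% and 19.1%, the first 3 lists in turn gave 2 and 0, 2 and 0 and 3 and 0. The last 3 gave 2 and 1, 1 and 0 and 5 and 0.

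**Figure D4:**
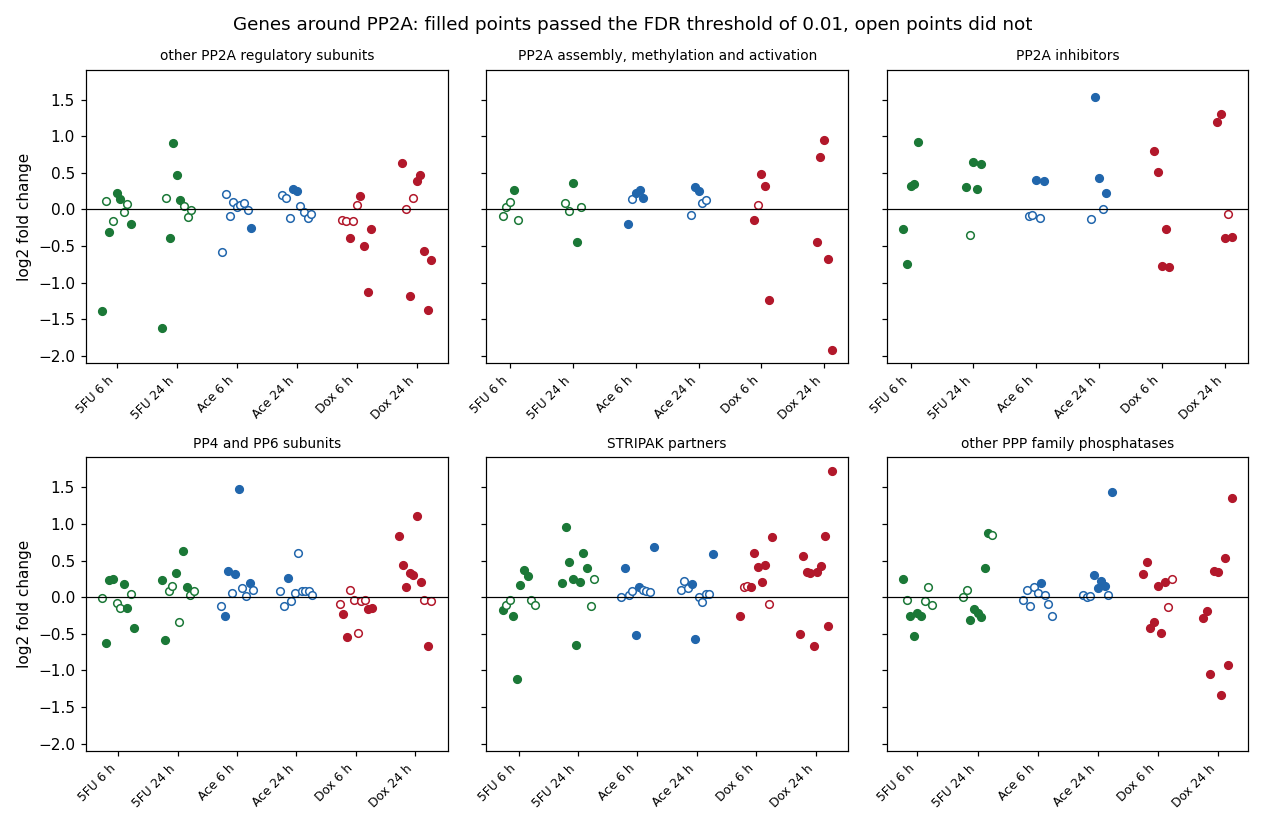
Log2 fold change of the genes on 6 lists around PP2A, in the 6 drug comparisons, with each point 1 gene and filled points past the edgeR FDR threshold of 0.01. The lowest points are Tiprl with Dox at 24 h, at −1.92, and Ppp2r2b with 5FU at 24 h, at −1.62.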

How the data were processed

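RNA of 65 rat cardiomyocyte cultures in 10 groups was sequenced. The authors quantified reads with kallisto 0.46.0 at its defaults, which ignore strand, on rat Ensembl transcripts and summed them to Entrez genes with tximport, and the deposited table holds these estimated counts as whole numbers for 14554 genes. The submitters' processing notes also name DESeq2. Symbols were matched by Entrez gene ID for 14009 genes. No gene was dropped for low counts, since each reached 10 counts in 1 library or more. Library totals of 14332827 to 25738297 were scaled by TMM (factors 0.859 to 1.07), and all 10 groups were fitted together with edgeR 4.0.16 (quasi-likelihood test, limma 3.58.1, R 4.3.3), with Benjamini-Hochberg FDR below 0.01 over all genes as the call. Ratios were compared by exact two-sided permutation tests with an adjusted p below 0.05 as the call. The scripts were tested on simulated data. Alternatives included DESeq2 1.42.0, other scalings and filters and leaving out each library. Over 180 pairs of libraries within groups the lowest chi-square per gene was 2.84, so none was counted as a copy of another. Besides the members, named genes were up to 4 per comparison from the 6 lists, those with the largest change among the genes called, and the 5 most like Ppp2r2c, of which 1 is not reported here. Ppp2r2b with Dox and Cip2a with 5FU at 24 h and with Dox and Slmap with 5FU at 24 h were added after their values were seen. The members and lists were chosen with earlier results of these data known.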

Additional observations from a re-analysis of the deposited data

Results flagged for a closer look

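Dixon's ratio compares the highest or lowest library of a group with the others. Of 120 groups tested, 8 held a library that stood apart, and chance gives about 1 in 20, or 6. Of these, 4 concerned Ppp2r2a, with 118 CPM in library 2 of Ace at 24 h, 113 CPM in library 4 of Ace at 6 h, 104 CPM in library 4 of DMSO2 at 24 h and 52.3 CPM in library 7 of Dox at 6 h. Library 6 of 5FU at 24 h had 0.722 CPM of Ppp2r2c, the lowest of its group. Library 2 of DMSO1 at 6 h had 50.6 CPM of Ppp2r2d, the highest of its group. Ppp2r3a had 292 CPM in library 1 of DMSO1 at 24 h, and Ppp2r5a had 194 CPM in library 7 of Dox at 24 h, each the highest of its group.

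The effect of 5FU differed between the times for 5 members by the interaction test (edgeR FDR below 0.01), with a 24 h effect minus 6 h effect on the log2 scale of 0.80 for Ppp2ca, 0.46 for Ppp2cb, 0.31 for Ppp2r1a, 0.38 for Ppp2r2a and 1.01 for Ppp2r3a. The effect of Ace differed by the same test for Ppp2r1a, by 0.16, and for Ppp2r5a, by −0.35.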

How the results depend on the processing

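Of 957 values of members in the 12 comparisons under other scalings, filters, tests and thresholds, 915 stayed on the same side of the threshold, 14 lost the call, 28 gained one and 0 called values reversed. The 915 include 120 values without a count filter, which repeat the main fit, as no gene was dropped there. They also include 118 values with Ppp2ca summed with Ppp2cal1, a setting that changed the counts of no member but Ppp2ca. Among the 12 comparisons are those of Dox, which helped to choose the genes. The share that stayed is thus not a count of separate checks. With only the DMSO2 and Ace groups in the fit Ppp2r2c was filtered out and had no value. With 1 library left out, 2049 of 2100 values stayed on the same side, 36 lost the call and 15 gained one. No paired analysis was possible because the columns of the count table carry no replicate numbers.

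With the FDR threshold at 0.1, 8 members were called for the change of the 5FU effect with time, 4 for Ace at 24 h and 6 for DMSO1 against DMSO2 at 6 h, which follows from the threshold. With only the groups compared in the fit, 2 members were called for 5FU at 6 h, and the calls of Ppp2ca and Ppp2r1a were lost (FDR 0.0210 and 0.0122). With library size as the only scaling, 4 members were called for Ace at 24 h and 1 for Ace at 6 h, and the change of the Ace effect on Ppp2r5a with time lost its call (−0.27, edgeR FDR 0.0175). The cause was not tested. The difference of the log2 ratio of Ppp2cb to Ppp2ca with 5FU at 24 h was −0.21 as a difference of medians, with an adjusted exact permutation p of 0.0520, and with Ppp2ca summed with Ppp2cal1, an alternative chosen after seeing the data, it was −0.14 for 5FU and −0.14 for Ace at 24 h. The cause was not tested.

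With 1 library left out, the number of members called ranged from 2 to 6 for DMSO1 against DMSO2 at 6 h, from 1 to 2 for Ace at 6 h and from 1 to 2 for the change of the Ace effect with time. The log2 ratio of Ppp2cb to Ppp2ca with 5FU at 6 h ranged from 0.070 to 0.12 (adjusted exact permutation p 0.0390 without library 4 of DMSO1), and that of Ppp2r1b to Ppp2r1a from −0.17 to −0.094 (adjusted exact permutation p 0.0346 without library 6 of 5FU).

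Over all genes, the number called for the change of the Ace effect with time was 1694, 3867 at an FDR of 0.1 and 2697 with only the groups compared. For Ace at 6 h it was 4619, and 7120 at an FDR of 0.1. For DMSO1 against DMSO2 it was 2397 at 6 h, 4751 at an FDR of 0.1 and 1588 with only the groups compared. At 24 h it was 63, 181 with DESeq2, 764 at an FDR of 0.1, 17 with only the groups compared and 10 to 162 with 1 library left out. With library size as the only scaling, the share of higher genes among those called went from 48.9% to 36.8% for 5FU at 6 h, from 48.8% to 61.4% for Ace at 24 h, from 49.1% to 33.8% for Dox at 6 h, from 59.9% to 29.6% and from 31.7% to 80.7% for DMSO1 against DMSO2 at 6 and 24 h, from 47.9% to 77.1% for the change of the Ace effect and from 52.5% to 64.8% for that of the Dox effect. The median log2 difference of all genes was then −0.15 for Dox at 6 h and 0.27 for the change of the Dox effect. Depth limits Ppp2r2c outside the Dox groups, where no library had more than 26 counts.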
